A study of Mesocricetus auratus with 38 samples.

Results

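The expression of 10 genes of mitochondrial fatty acid oxidation was followed in liver RNA of Golden Syrian hamsters. They were Acadvl, Acadl, Acadm, Acads, Acad11, Hadha, Hadhb, Hadh, Etfa and Etfdh. The genes were taken by symbol and not by their values, and 10 of 10 were found among the 14631 gene symbols of the deposited tables. Animals were male and 22 weeks old. The control group (Chow diet, 9 libraries) was kept for 12 weeks on a normal diet, of whose calories 11% were fat, and the high-fat diet group (HFD, 10 libraries) was kept as long on a diet with cholesterol in which fat gave 23% of calories. The Dose I group (HFD + MI_D1, 9 libraries) and the Dose II group (HFD + MI_D2, 10 libraries) ate the same HFD and were given combined metabolic activators (CMA) over the final 4 weeks. The activators were L-carnitine, N-acetylcysteine, nicotinamide riboside and betaine, given together. At Dose I each of the first-named 3 was given at 200 mg/kg and betaine at 400 mg/kg, and at Dose II the amounts were 400 mg/kg and 800 mg/kg. No group ate the normal diet with CMA, and no ingredient was given alone, so a difference between a dose group and the HFD group belongs to the whole mixture on the HFD. The labels name no animal, each library was taken as 1 animal, and p-values measure the spread between these libraries.

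In the mitochondrial matrix, fatty acids bound to coenzyme A are shortened in a repeated cycle of dehydrogenation, hydration, a further dehydrogenation and cleavage, which releases acetyl-CoA. Acyl-CoA dehydrogenases, flavoproteins that differ in the chain length they prefer, open the cycle and hand their electrons to the electron transfer flavoprotein (ETF), from which ETF dehydrogenase passes them to ubiquinone in the respiratory chain. The liver relies on this pathway during fasting, when its acetyl-CoA feeds ketone body synthesis, and fatty liver is a state in which fat supply outruns disposal.

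Total estimated counts were 4076000 to 10380000 per library. Control library C105 was set aside (libraries carry C, H, DI or DII for their group and the number of their label), because its score on the first principal component was 18.97 while the other controls lay between -23.11 and -13.02. Results rest on the other 37 libraries, with 8 controls, and values over all 38 are given where they matter. Hepatocyte markers were found in every library, and 9 of 10 on the list were in the tables. Their summed level was 133500 to 157700 TPM (the share of transcripts in the library, scaled for length) in the control group, 100400 to 132900 in the HFD group, 102800 to 122700 in the Dose I group and 91640 to 119700 in the Dose II group, so that no dose or HFD library reached the lowest control. The markers did not all move with this sum, in which Alb is the most abundant. In HFD vs. control 4 of the 9 were called lower, Alb among them (-0.48 on the log2 scale, edgeR adjusted p = 0.00024), and 2 were called higher, Ttr among them (0.32, 0.000458). Over all 38 libraries 3 were lower and 0 higher. The summed level of 14 macrophage markers was 258.4 to 409.5 TPM in the control group, 350.0 to 601.1 TPM in the HFD group, 263.6 to 516.0 TPM in the Dose I group and 243.4 to 427.9 TPM in the Dose II group. Of these 14 markers, 9 were called higher in HFD vs. control and 7 lower in Dose II vs. HFD (4 and 2 over all 38 libraries), and their part in the results below was not tested. Among all genes tested, 18.1% were called lower and 18.1% higher in HFD vs. control, and 5.63% were called in Dose II vs. HFD. The fat cell genes Adipoq and Lep were at 0 in all 38 libraries. In bulk liver RNA, fewer cells of a type and less RNA per cell cannot be told apart.

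All 10 genes were among the abundant transcripts of the liver. By mean TPM over the 37 libraries, Acadm stood at percentile 99.15 of the 14631 symbols with 690.9 TPM, and Acad11, the lowest of the 10, at percentile 97.05 with 193.8 TPM. In the control group Acadm (750.6 TPM ± 47.37, SD, n = 8), the medium-chain acyl-CoA dehydrogenase, stood first. It was followed by Hadh (617.3 TPM ± 40.58), Etfa (529.4 TPM ± 54.92) and Acadvl (350.8 TPM ± 33.69). Each of these 4 stood above the next gene by more than the larger SD of the pair. From Acads (279.1 TPM ± 55.56) through Etfdh (273.0 TPM), Acadl (265.1 TPM), Hadhb (247.0 TPM) and Acad11 (236.1 TPM) to Hadha (199.7 TPM), neighbours differed by less than that spread. The order was not the same in the other groups. Acads, the short-chain acyl-CoA dehydrogenase, came below Acadvl in the control group and above it in the HFD, Dose I and Dose II groups, where its mean was 332.0, 378.5 and 402.3 TPM. In those 3 groups its lead over Acadvl was smaller than the larger SD. Acad11 came before Hadha in the control group and last in the others. Hadh and Etfa differed by 87.89 TPM in the control group and by no more than 12.78 TPM in the other groups, which is within their spread.

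**Figure D1:**
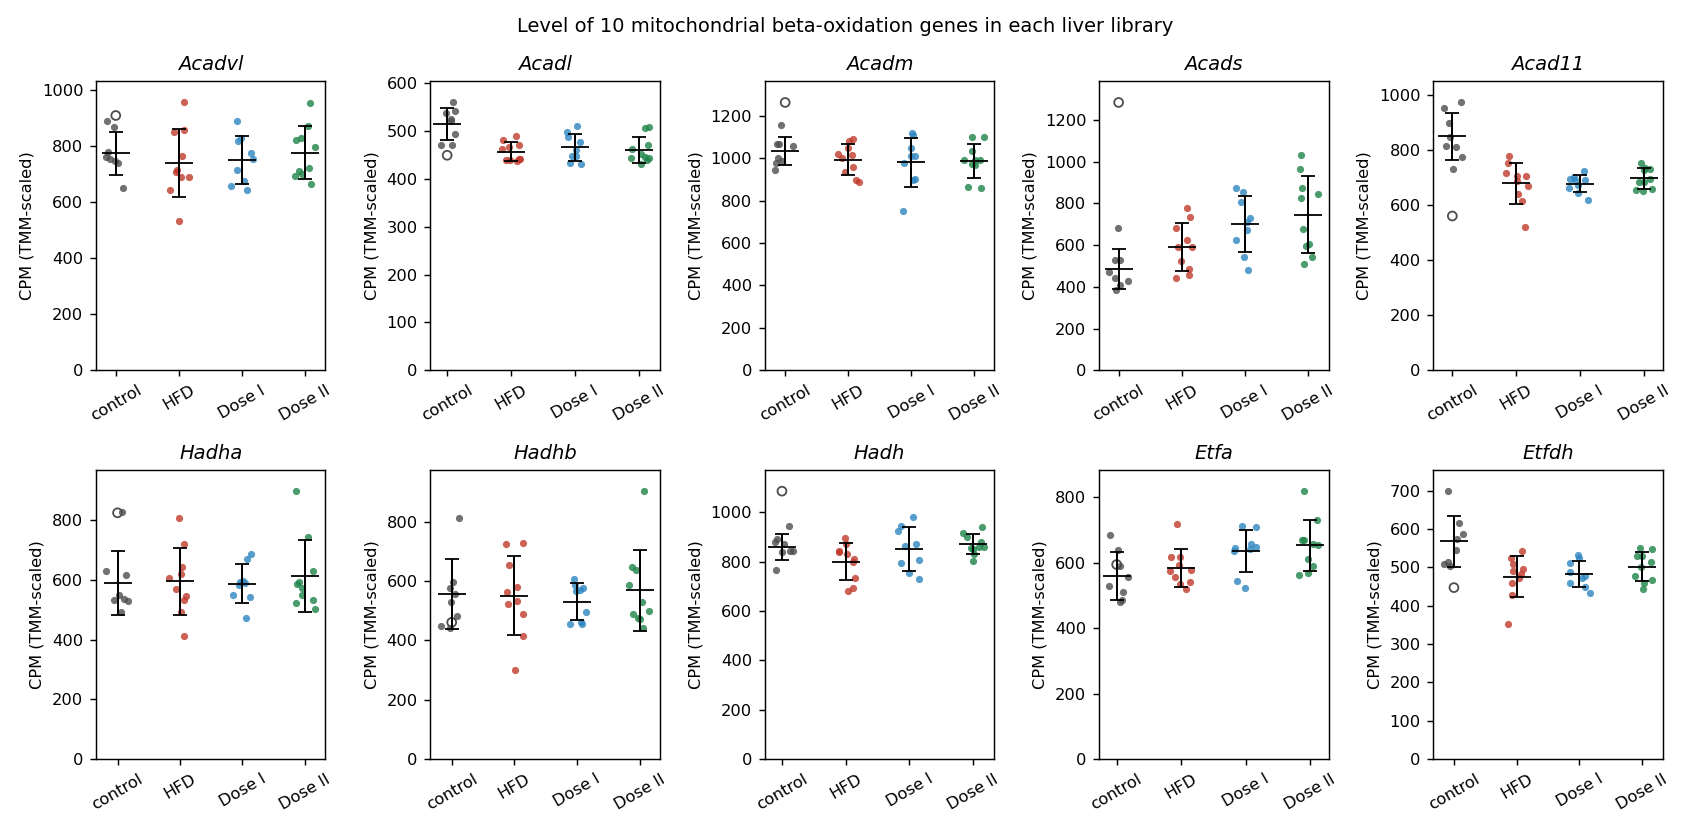
CPM (counts scaled to library size, vertical axis, from 0) of each gene in each of 38 liver libraries. Filled points are the 37 libraries used, bars are mean ± SD, and the open circle is C105. Acad11, Etfdh and Acadl lie lower in the HFD and dose groups than in the control group, and Acads lies higher in both dose groups.

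The comparison of HFD with control asked how liver expression differed between the diets without CMA. The paper's methods name a placebo for the HFD group over the final 4 weeks and do not state one for the control group. On the HFD, 3 of the 10 genes fell, none rose and 7 were not called. The 3 were Acad11, Etfdh and Acadl, at 0.792, 0.83 and 0.879 times the control level. Over all 9099 genes tested, 36.2% were called in this comparison, with 18.1% lower and 18.1% higher. In this fit, 3 lower calls among 10 genes is thus a share not far above that of all genes. Over all 38 libraries the same 3 genes were lower, while 15.6% of all genes were called, 42.6% of those higher. With an offset for transcript length 4 of the 10 were lower, and 31.7% of all genes were called. The median log2 fold change of the 10 genes was -0.07, beside 0.01 for all genes tested. A call was made at an adjusted p below 0.1, the threshold of the study, with edgeR's quasi-likelihood test and Benjamini-Hochberg adjustment over all genes tested. The test was run on the estimated counts, and CPM below are estimated counts scaled to library size by the trimmed mean of M-values.

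Acad11 encodes a member of the acyl-CoA dehydrogenase family known for the breakdown of hydroxylated fatty acids. Its level in the controls was 730.4 to 971.4 CPM, with a median of 829.5, and in the HFD libraries 519.7 to 777.4 CPM, with a median of 695.3. The Dose I libraries lay between 619.3 and 722.0 CPM (median 690.7) and those of Dose II between 649.6 and 751.8 CPM (median 689.1). In the HFD group 8 of 10 libraries lay below the lowest control, and 6 of 8 controls lay above the highest HFD library, so that the groups overlapped. With C105, where Acad11 was at 559.6 CPM, 1 HFD library lay below the lowest control. The log2 fold change in HFD vs. control was -0.34 (SE 0.0629, edgeR adjusted p = 0.000189). Over all 38 libraries, where 15.6% of genes were called, it held with an edgeR adjusted p of 0.0123.

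Etfdh encodes ETF dehydrogenase, the membrane flavoprotein that passes electrons from ETF to ubiquinone. The control libraries lay between 504.5 and 699.2 CPM (median 559.9), and the HFD libraries between 352.6 and 542.4 CPM (median 486.4). Of the 10 HFD libraries 7 were below the lowest control, and 5 of 8 controls were above the highest HFD library. C105 was at 447.4 CPM, and 2 HFD libraries were below it. The log2 fold change was -0.27 (SE 0.0701, edgeR adjusted p = 0.00418), and the adjusted p was 0.0327 over all 38 libraries.

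Acadl encodes the long-chain acyl-CoA dehydrogenase. Its control libraries were at 469.7 to 559.3 CPM (median 522.8) and its HFD libraries at 437.4 to 488.4 CPM (median 451.8). Here too 7 of 10 HFD libraries lay under every control and 6 of 8 controls over every HFD library, and 5 HFD libraries lay under every control once C105 (449.0 CPM) was counted. The log2 fold change of -0.19 (SE 0.052, edgeR adjusted p = 0.00725) was the smallest of the 3 calls, and it held over all 38 libraries with an adjusted p of 0.0445.

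Among the other acyl-CoA dehydrogenases, Acadvl, which acts on very long chains at the inner membrane, had a log2 fold change of -0.08 (95% interval -0.25 to 0.10). Acadm had one of -0.07 (95% interval -0.20 to 0.06). Acads stood on the other side, at 0.28 (SE 0.139, edgeR adjusted p = 0.136). Its control libraries lay between 385.8 and 682.4 CPM (median 456.1) and its HFD libraries between 443.9 and 776.0 CPM (median 589.1). The groups overlapped, with 2 of 10 HFD libraries above the highest control and 4 of 8 controls below the lowest HFD library. Acads was called higher when C104, H115 or H116 was left out, with edgeR adjusted p of 0.0502, 0.0804 and 0.0915. With C105 included its log2 fold change was 0.03 (edgeR adjusted p = 0.941) and 0 HFD libraries lay above the highest control.

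Of the 10 genes, those for the later steps of the cycle and for ETF itself were not called. Hadha and Hadhb encode the alpha and beta subunits of the trifunctional protein, which carries out the last 3 reactions on long chains. Their log2 fold changes were 0.002 (95% interval -0.22 to 0.22) and -0.02 (95% interval -0.29 to 0.24). Hadh, the 3-hydroxyacyl-CoA dehydrogenase for shorter chains, had -0.12 (SE 0.0623, edgeR adjusted p = 0.163). A correction for transcript length turned Hadh into a lower call, with -0.15 and an adjusted p of 0.0512, and so did limma on log2(TPM + 1), with -0.24 and 0.00904. Etfa, the alpha subunit of ETF, had 0.05 (95% interval -0.10 to 0.21). The gene of the other ETF subunit, Etfb, was not analysed here.

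**Figure D2:**
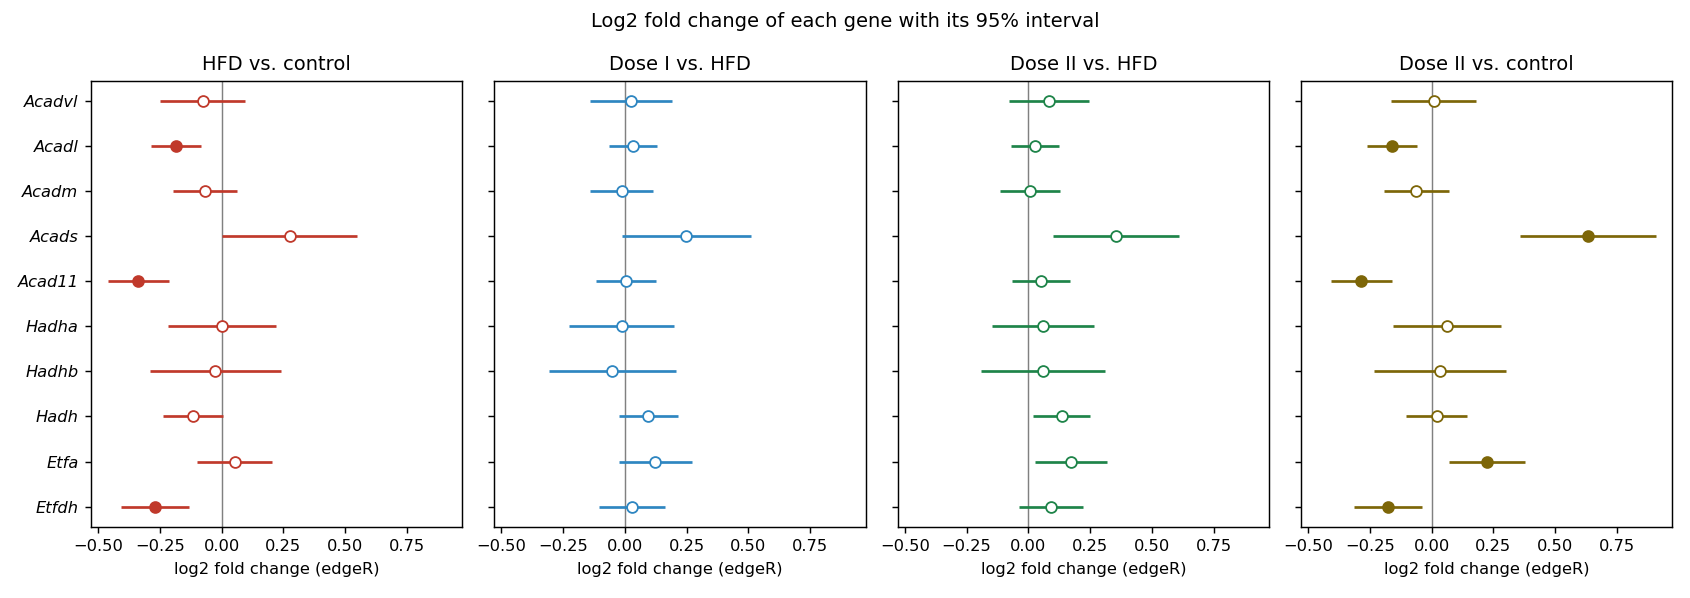
Log2 fold change (horizontal axis) of each gene in 4 comparisons, with its 95% interval as a line. Filled points passed an edgeR adjusted p of 0.1. Acadl, Acad11 and Etfdh are filled to the left of 0 in HFD vs. control and in Dose II vs. control. No gene is filled in either comparison of a dose with HFD. Acads and Etfa are filled to the right of 0 in Dose II vs. control. The calls of Acads and Etfdh in Dose II vs. control are lost with C105 included.

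The comparisons of each dose with HFD asked whether CMA changed expression on the same diet. They share the 10 HFD libraries. At Dose I none of the 10 genes was called, and 0.187% of all genes tested were. No member had an unadjusted p under 0.05 there, and DESeq2 called 0 of the 10 as well. The log2 fold changes ran from -0.05 (Hadhb) to 0.25 (Acads), with a median of 0.03 beside 0.002 for all genes.

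At Dose II none of the 10 was called either, against 5.63% of all genes tested, and DESeq2 called 0 of them. All 10 fold changes were above 0, with a median of 0.07 beside -0.004 for all genes tested. On the scale of log2(TPM + 1) with limma, however, 5 of 10 were above 0 and the median was 0.005, beside -0.06 for all genes. The fold changes of 3 genes had an unadjusted p under 0.05, and these were Acads, Etfa and Hadh. Acads went from 443.9 to 776.0 CPM in the HFD group to 511.2 to 1029 CPM in the Dose II group (median 751.2), and these ranges overlapped. Its log2 fold change was 0.36 (SE 0.131, p = 0.00981 and edgeR adjusted p = 0.129). It passed the threshold when H110, H112, DII132 or DII133 was left out, with edgeR adjusted p of 0.0767, 0.091, 0.0932 and 0.0821.

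Etfa lay between 519.0 and 719.5 CPM in the HFD group (median 576.6) and between 563.0 and 819.3 CPM in the Dose II group (median 655.3). The log2 fold change was 0.17 (SE 0.0736, edgeR adjusted p = 0.192). Hadh was at 681.4 to 897.3 CPM in the HFD group (median 821.7) and 801.2 to 938.7 CPM in the Dose II group (median 860.2), a log2 fold change of 0.14 (SE 0.0588, edgeR adjusted p = 0.197). In both genes the groups overlapped.

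For the 3 genes that fell on the HFD, the fold changes under CMA were small. Acad11 had 0.004 (95% interval -0.12 to 0.12) at Dose I and 0.05 (-0.06 to 0.17) at Dose II. Acadl had 0.03 (-0.07 to 0.13) and 0.03 (-0.07 to 0.12). Etfdh had 0.03 (-0.11 to 0.16) and 0.09 (-0.04 to 0.22). These upper bounds are below the estimated falls on the HFD (0.34 for Acad11, 0.27 for Etfdh and 0.19 for Acadl). The falls have 95% intervals of their own, -0.46 to -0.21 for Acad11, -0.41 to -0.13 for Etfdh and -0.29 to -0.08 for Acadl. For Etfdh and Acadl the upper bounds under CMA pass the smaller end of that interval. Both kinds of comparison use the same HFD libraries, so these bounds do not decide whether levels returned to control. The doses themselves were compared in Dose II vs. Dose I, where edgeR and DESeq2 called 0 members and 0 of all genes tested, no member had an unadjusted p under 0.05, and the largest fold change was that of Hadhb at 0.11 (SE 0.132).

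Against the control group, each dose group had 5 of 10 members called, 3 lower and 2 higher. These comparisons share the 8 control libraries with each other and with HFD vs. control. Of all genes tested 40.7% were called at Dose I (20.1% lower, 20.6% higher) and 47.4% at Dose II (23.4% lower, 23.9% higher), so 5 of 10 is close to the background. Over all 38 libraries these shares were 21.8% and 32.9%, and 3 of the 10 were called at each dose. Acad11 had a log2 fold change of -0.33 (SE 0.0646, edgeR adjusted p = 0.000166) at Dose I and -0.28 (SE 0.063, adjusted p = 0.000444) at Dose II. All 9 Dose I libraries were below every control, as holds without overlap for 3.8% of all genes tested. At Dose II 8 of 10 libraries were below the lowest control. C105 was below every library of both dose groups in this gene, so that with it 0 dose libraries lay below the lowest control. Acadl had -0.15 (edgeR adjusted p = 0.0246) and -0.16 (0.0131), and Etfdh had -0.24 (edgeR adjusted p = 0.00919) and -0.18 (0.0412). The call of Etfdh at Dose II was lost without C106 (edgeR adjusted p = 0.143) and over all 38 libraries (0.141).

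The 2 higher genes were Acads and Etfa. Acads was at 482.4 to 871.3 CPM in the Dose I group (median 708.0), and 5 of 9 Dose I libraries and 5 of 10 Dose II libraries lay above the highest of the 8 controls. Its log2 fold change was 0.53 (SE 0.143, edgeR adjusted p = 0.00467) at Dose I and 0.63 (SE 0.14, edgeR adjusted p = 0.000456) at Dose II, or 1.44 and 1.55 times the control level. This was the largest fold change of any member in any of the 6 comparisons. It turned on C105, in which Acads was at 1283 CPM, above all 37 other libraries. With that library included the log2 fold changes were 0.28 and 0.38, and the calls were lost (edgeR adjusted p = 0.307 and 0.103).

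Etfa had 0.18 (SE 0.0801, edgeR adjusted p = 0.0882) at Dose I and 0.23 (SE 0.0783, adjusted p = 0.0198) at Dose II. The Dose I call was lost over all 38 libraries (adjusted p = 0.164), and also when any of 10 libraries was left out. These were C102, C103, C104, C108, DI122, DI123, DI124, DI125, DI126 and DI128, with adjusted p from 0.103 to 0.185. Over all 38 libraries the Dose II call held. Libraries differed in how their counts deviated with transcript length, which was measured across genes as the Spearman correlation between a gene's deviation in the library and its relative length. That correlation was 0.0989 to 0.33 in the control group, -0.214 to 0.146 in the HFD group, -0.279 to 0.109 in the Dose I group and -0.289 to 0.0905 in the Dose II group. Etfa is a short transcript, at percentile 19.2 of relative length. With an offset for the length trend its fold changes were 0.10 and 0.14 and both calls were lost (edgeR adjusted p = 0.357 and 0.172), while the calls of Acads, Acad11, Acadl and Etfdh held under that offset.

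The genes did not all vary together from animal to animal. After group means were removed, the 45 pairs of genes had a median Pearson correlation of log2 CPM of 0.386 over the 37 libraries, with 38 pairs above 0. These correlations are descriptions, since all genes of a library share its depth and RNA. The highest was that of Hadha with Hadhb at 0.9, and the next were Acadvl with Hadhb (0.844), Hadhb with Etfdh (0.808) and Acad11 with Etfdh (0.754). Acads stood apart. Of its 9 pairs 7 were below 0, down to -0.399 with Etfa and -0.39 with Etfdh, and its highest was 0.408 with Hadh. None of the 36 pairs without Acads was below 0. Single libraries were extreme in several genes at once. H116 was highest of its group in 6 of 10 genes and lowest in Acads, and H113 was lowest in 5. In the control group C106 was highest in 4 genes and C103 lowest in 4.

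Hadha and Hadhb, whose products form 1 complex, are neighbouring genes in the RefSeq annotation of the hamster assembly BCM_Maur_2.0, where 0 other genes are listed between them. Taken within each library, the ratio of Hadha to Hadhb TPM was 0.814 ± 0.0611 (SD, n = 8) in the control group, 0.84 ± 0.101 (n = 10) in the HFD group, 0.848 ± 0.0641 (n = 9) in the Dose I group and 0.833 ± 0.0744 (n = 10) in the Dose II group. Group ranges overlapped widely, between 0.675 and 1.05 in all. The log2 ratio differed by 0.04 in HFD vs. control (two-sided exact permutation p = 0.585), by 0.02 in Dose I vs. HFD (exact permutation p = 0.779) and by -0.01 in Dose II vs. HFD (p = 0.896, permutation test with 100000 resamples). Adjusted over these 3 tests each p was 0.896. In C105 the ratio was 1.37, above every other library.

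**Figure D3:**
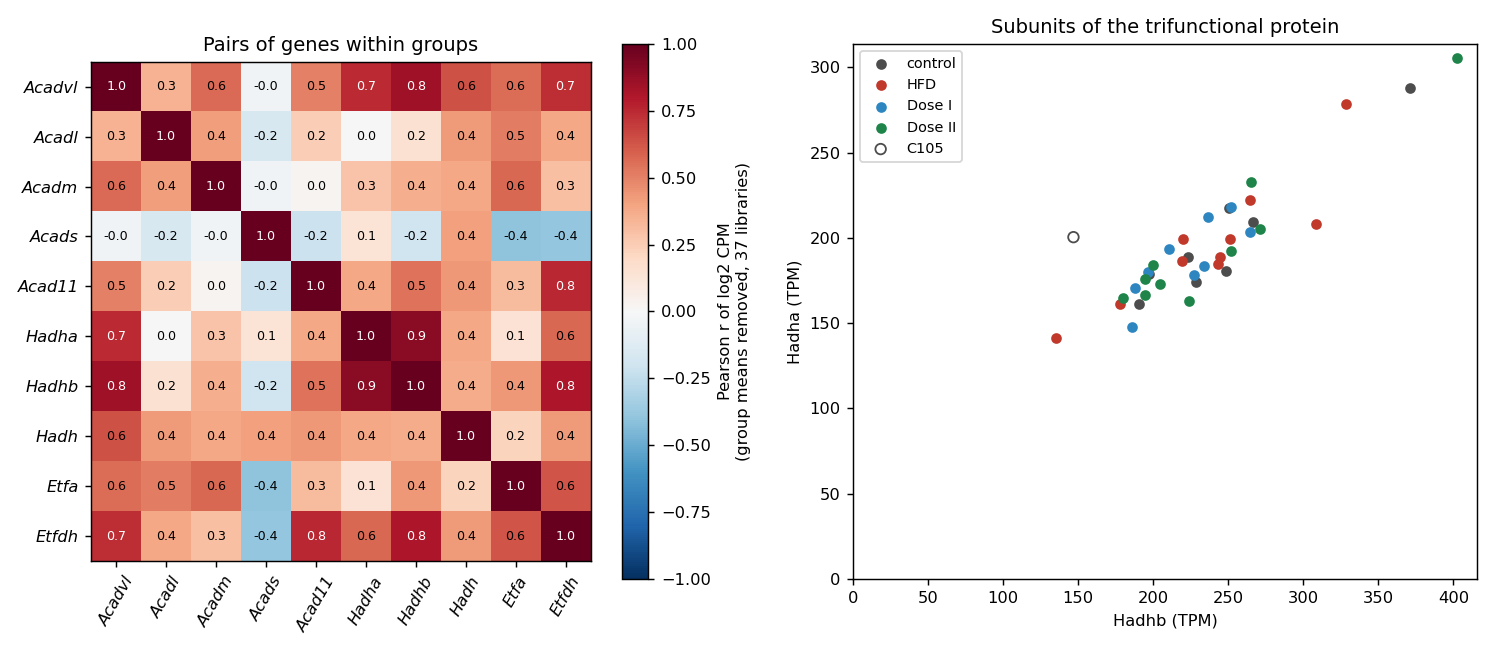
Left, Pearson correlation (colour, from -1 to 1) of log2 CPM between the 10 genes over 37 libraries after group means were removed. Right, Hadha against Hadhb in TPM, with 1 point for each library and C105 as an open circle. The row of Acads is the only one with pairs below 0 apart from the matching cells of the other genes, and all libraries but C105 lie along 1 band in the plot of the subunits.

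Of 5920 other genes with a mean of at least 10 CPM, those whose log2 CPM followed the mean standardized level of the 10 members most closely over the 37 libraries included Ehhadh (r = 0.752), Decr2 (0.744), Hsd17b11 (0.734) and Decr1 (0.734). Ehhadh is an enzyme of peroxisomal beta-oxidation, Decr1 and Decr2 are the mitochondrial and peroxisomal 2,4-dienoyl-CoA reductases for unsaturated chains, and Hsd17b11 is a lipid droplet-associated dehydrogenase. With group means removed the correlations of these genes were 0.719 to 0.817.

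Other genes of fatty acid oxidation were taken from lists chosen by function. Of 14 tested genes of mitochondrial fatty acid uptake, activation and oxidation and of propionyl-CoA use outside the 10 members, 6 fell and 1 rose in HFD vs. control, and their median log2 fold change was -0.15. Of all genes tested 18.1% were lower and 18.1% higher in this comparison. The 1 higher call was lost over all 38 libraries (edgeR adjusted p = 0.501). Cpt1a, which makes the acylcarnitines that cross into mitochondria and is the main control point of their import, fell from 388.9 CPM ± 61.38 (SD, n = 8) to 186.0 CPM ± 58.17 (n = 10), a log2 fold change of -1.08 (SE 0.172, edgeR adjusted p = 3.07e-05) with no overlap between the groups, as for 1.78% of all genes tested. This was a larger fold change than that of any member. Mmut, the methylmalonyl-CoA mutase, had -0.49 (edgeR adjusted p = 1.29e-05) and Acsl1, a long-chain acyl-CoA synthetase, -0.38 (0.0114). The lower calls also included Echs1, the short-chain enoyl-CoA hydratase of the hydration step (-0.18, edgeR adjusted p = 0.0198), and Hsd17b10, a 3-hydroxyacyl-CoA dehydrogenase (-0.17, 0.0598), both named after their values were seen. Both calls held over all 38 libraries (0.02 and 0.0383). At Dose I none of the 14 was called against HFD, and at Dose II Pcca, a subunit of propionyl-CoA carboxylase, rose by 0.21 (edgeR adjusted p = 0.0971), a call lost over all 38 libraries (0.158), where 2.7% of genes were called. In the 37 libraries 0.187% of all genes tested were called at Dose I and 5.63% at Dose II. Cpt1a stayed uncalled at both doses against HFD, with -0.37 (edgeR adjusted p = 0.489) and -0.20 (0.543).

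A further list held 8 mitochondrial flavoprotein dehydrogenases, most of which are known to pass electrons to ETF. In HFD vs. control 3 of 8 fell and none rose, while 18.1% of all genes tested fell and 18.1% rose. Among the 3 was Dmgdh, the dimethylglycine dehydrogenase of choline and betaine breakdown, at -0.39 (edgeR adjusted p = 0.00157). At Dose I Dmgdh alone rose against HFD, by 0.55 (SE 0.0876, edgeR adjusted p = 0.00168). At Dose II 3 of 8 rose, while 5.63% of all genes tested were called in either direction. Dmgdh went from 287.3 CPM ± 46.25 (n = 10) to 478.7 CPM ± 50.15 (n = 10), or 0.75 on the log2 scale (SE 0.0857, edgeR adjusted p = 7.49e-07), and the groups did not overlap, as holds for 0.132% of genes tested. Sardh, the sarcosine dehydrogenase, had 0.33 (edgeR adjusted p = 0.0794) and D2hgdh, the D-2-hydroxyglutarate dehydrogenase, 0.36 (0.0892), and both calls were lost over all 38 libraries (0.121 and 0.127). Of 4 tested genes of flavin uptake and FAD synthesis none was called in HFD vs. control or in either dose vs. HFD, and FAD synthase Flad1 was higher than control at Dose I (0.30, edgeR adjusted p = 0.0114) and at Dose II (0.34, 0.00313). Rfk, the riboflavin kinase of the step before it, was lower than control at Dose I (-0.22, edgeR adjusted p = 0.0973) and at Dose II (-0.24, 0.06), and the Dose I call was lost over all 38 libraries (0.115). The riboflavin transporter Slc52a2 was higher than control at Dose II (0.38, edgeR adjusted p = 0.0733), a call also lost over all 38 libraries (0.202).

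Among genes of ketone body synthesis and release, Bdh1, a 3-hydroxybutyrate dehydrogenase, fell by 0.24 on the log2 scale on the HFD (edgeR adjusted p = 0.0639). Slc16a1, a transporter of ketone bodies and lactate, rose by 0.74 (0.0693), a call lost over all 38 libraries (0.152), and neither gene was called for either dose against HFD. Of 10 tested peroxisomal genes, 2 fell and 1 rose in HFD vs. control, beside 18.1% lower and 18.1% higher among all genes tested. Ehhadh, the peroxisomal bifunctional enzyme, had -0.76 (SE 0.201, edgeR adjusted p = 0.0045) and Abcd3, a peroxisomal fatty acid transporter, -0.62 (SE 0.137, adjusted p = 0.000995). Ech1 rose by 0.37 (edgeR adjusted p = 0.00701), a call lost over all 38 libraries (0.321). At Dose II vs. HFD Abcd3 fell by 0.55 on the log2 scale (edgeR adjusted p = 0.0142). Of 8 tested genes around PPARA, a nuclear receptor for fatty acids, Ppara itself had -1.05 in HFD vs. control (SE 0.223, edgeR adjusted p = 0.000699), the liver transcription factor gene Creb3l3 had 0.29 (0.0838, and 0.472 over all 38 libraries), and the lipid droplet gene Plin2 fell by 1.41 on the log2 scale at Dose II vs. HFD (SE 0.46, adjusted p = 0.0864), a call lost over all 38 libraries (0.117). Of 5 tested nuclear genes of other mitochondrial functions, Vdac2 rose by 0.27 and Glud1 fell by 0.39 on the log2 scale in HFD vs. control (edgeR adjusted p = 0.00269 and 0.000483). Transcripts encoded by mitochondrial DNA took 7.55% to 9.61% of counts in the control group and 9.34% to 11.6% in the HFD group.

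**Figure D4:**
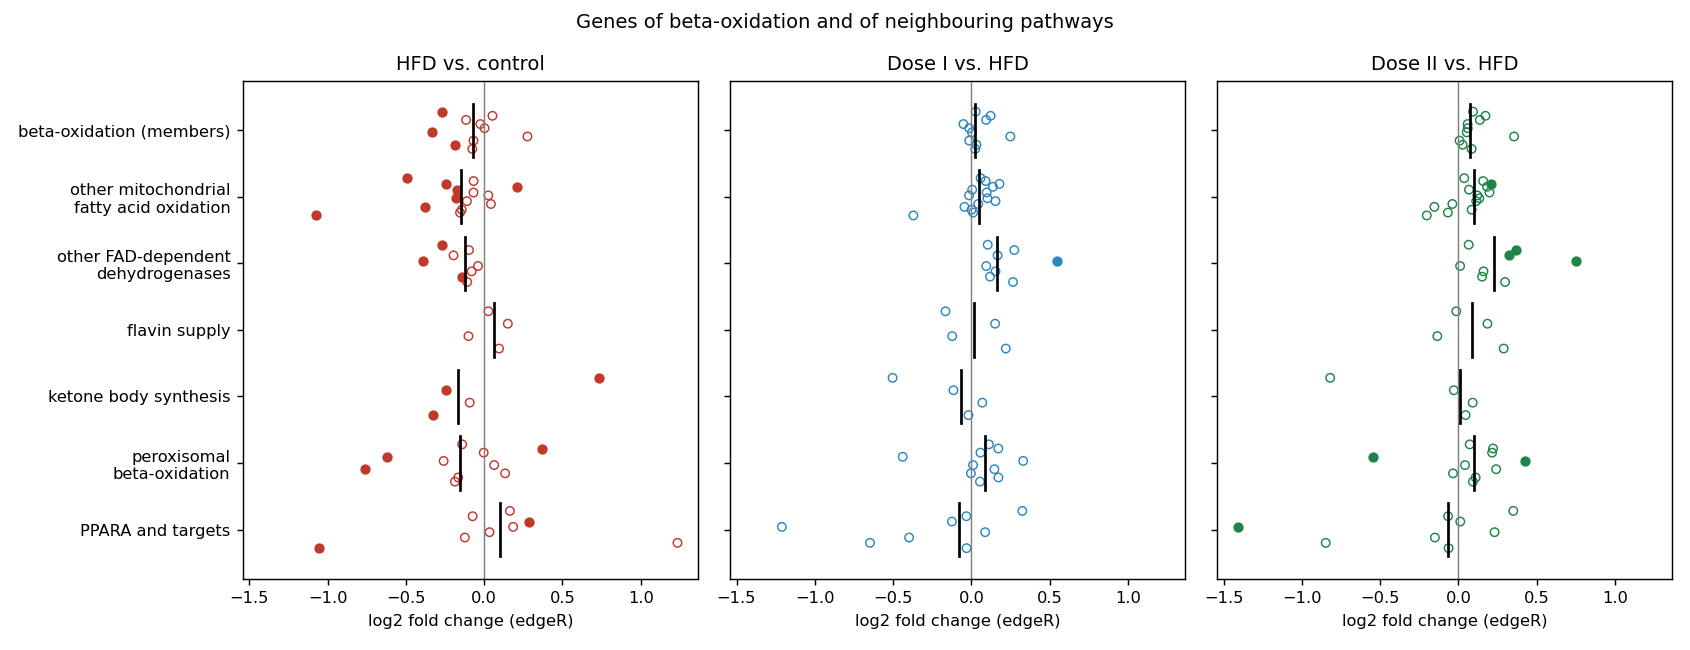
Log2 fold change (horizontal axis) of each tested gene of 7 lists in HFD vs. control, Dose I vs. HFD and Dose II vs. HFD. Filled points passed an edgeR adjusted p of 0.1 and black lines are list medians. The member genes lie closer to 0 than Cpt1a and Ppara in HFD vs. control, and Dmgdh is the filled point at 0.55 and 0.75 in the comparisons of the doses with HFD.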

How the data were processed

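Liver RNA-seq reads were quantified by the authors against the MesAur1.0 hamster genome in kallisto. The deposited values are estimated counts for each gene symbol, without normalization, and TPM, which also correct for transcript length. Estimated counts were rounded to whole numbers (13.2% of values were not whole), filtered with filterByExpr, scaled by TMM and compared in R 4.3.3 by the quasi-likelihood F test of edgeR 4.0.16, with all 4 groups in 1 fit of 9099 genes. SEs were derived from each log2 fold change and its F, and 95% intervals from the SEs. Groups come from the labels. The study left out a control library after its PCA without naming it in its text, and C105, which earlier results of these data name, was set aside here. Near-identical genes can share estimated counts. No pair of libraries of the same group agreed within sampling noise, and pairs from different groups were not compared. CPM levels use TMM factors of all 38 libraries. Alternatives were all 38 libraries, DESeq2 1.42.0, RLE, no filter, only the compared groups, length-trend offsets (lowess span 0.3), limma 3.58.1 on log2(TPM + 1) and log2(TPM + 0.1), a threshold of 0.05 and leaving out each library. Scripts were tested on simulated counts. Log2 fold changes of 0.5 were recovered for 68% of changed genes in HFD vs. control. In Dose I vs. HFD 77% were recovered and in Dose II vs. HFD 85%. False calls made up 7.73%, 7.45% and 11.9% of the calls in these comparisons. Smaller changes were not simulated. Members and lists were chosen with earlier results of these data known. Named genes are all members, up to 3 called genes of each list per comparison with the smallest adjusted p, and the 5 genes most correlated with the members (log2 CPM, prior count 2), some of which are not reported here. Of the cell marker lists, endothelial (7 tested), stellate (7), bile duct (4), muscle and fat (2) and blood (1) genes had 2, 1, 1, 0 and 0 calls in HFD vs. control, 0 in Dose I vs. HFD and 2, 0, 0, 0 and 0 in Dose II vs. HFD. Sequences of these genes and their genome positions are not reported here, because the reference table is of another assembly than the files.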

Additional observations from a re-analysis of the deposited data

Results flagged for a closer look

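In 7 of 55 groups of libraries there was a library whose distance from the nearest other was above Dixon's 95% critical value, and chance flags about 5% of groups. In the control group with all 9 libraries, Acads stood at 1283 CPM in C105 while the nearest control was at 682.4 CPM. The same library had a Hadha to Hadhb TPM ratio of 1.366, with the nearest control at 0.9081. C106 was set apart by Hadha, at 827.2 CPM against 630.7 CPM in the nearest of 8 controls. Hadhb was at 812.8 CPM in that library, against 597.8 CPM, and this was flagged both among 8 and among 9 controls. In the Dose II group Hadhb was at 902.6 CPM in DII131, and the nearest library was at 646.4 CPM. Etfa was at 719.5 CPM in H116, where the nearest HFD library was at 617.9 CPM.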

How the results depend on the processing

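No paired analysis was possible because the replicate numbers are unique to each library, so that the groups share none. Members called in Dose I vs. control went from 5 to 3 over all 38 libraries and to 3 with the length offset added, and those in Dose II vs. control from 5 to 3 and 2. The share of all genes called fell as well. It went from 40.7% to 21.8% and 22.4% at Dose I, and from 47.4% to 32.9% and 32.2% at Dose II. Hadh in Dose II vs. control was 0.02 and not called, but -0.15 with limma on log2(TPM + 1), -0.155 on log2(TPM + 0.1) and -0.15 with no filter, each called (adjusted p = 0.063, 0.063 and 0.0779). On log2(TPM + 1) Acadm was also called lower than control at Dose I (-0.19, adjusted p = 0.0292) and Dose II (-0.18, 0.0282), and Hadh at Dose I (-0.19, 0.0327). Leaving out each library gave 3 to 4 members called in HFD vs. control, 0 to 0 in Dose I vs. HFD, 0 to 1 in Dose II vs. HFD, 0 to 0 in Dose II vs. Dose I and 4 to 5 in each dose vs. control. The share of all genes called in those fits is not reported here. Fold changes called in neither fit took the other sign under some alternatives, with sizes of at most 0.0756 in the reported fit. Each Hadha to Hadhb ratio test kept its side of the threshold under the alternatives run for it. The share of higher calls among all called genes depended on the scale. With limma on log2(TPM + 1) it was 37.5% in place of 82.4% in Dose I vs. HFD, 25.6% in place of 60% in Dose II vs. HFD, 35% in place of 50.7% in Dose I vs. control and 35.5% in place of 50.5% in Dose II vs. control. In Dose I vs. HFD these are shares of only 8 called genes with limma and 17 with edgeR. In Dose II vs. HFD they are shares of 590 and 512. The cause of these shifts was not tested. Members had 1628 to 10070 estimated counts per library. Counting alone then gives an error of at most 2.48%, while SDs within groups were 4.32% to 24.6% of the mean CPM, and SEs were 0.0491 to 0.143 on the log2 scale.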
